A study of Xenopus tropicalis with 13 samples.

Results

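The regions described here are the narrow gene segments that read more in neurulae of the frog Xenopus tropicalis after Taf15 was targeted with a morpholino (MO), an injected antisense oligonucleotide. A bin is a piece of a gene, cut wherever the annotated edges of its transcripts differ, and its usage is how much of the gene's signal it takes. The authors' deposited table for stage 15 lists 1429 bins in 1046 genes, each with higher usage in MO-injected embryos, and the lowest log2 ratio of usage among the bins kept here is 1.00 in the authors' deposited table. From it, the 494 bins under 150 bases with at least 1 read over the uninjected embryos were taken, which is 34.6% of the listed bins, and they lie in 384 host genes. A further 132 listed bins under 150 bases had no uninjected read and were left out by this rule. The bins were thus selected on their width, on the authors' comparison of usage and on the uninjected counts, so all their values in that comparison are given as a description, with no test.

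RNA with poly(A) tails was sequenced from 13 single whole embryos, each 1 animal, raised in dilute frog saline. At stage 15, in the neurula, 4 were uninjected and 3 were MO-injected. At stage 10, the start of gastrulation, 3 were uninjected and 3 were MO-injected. Titles of the MO-injected embryos of stage 10 and of 1 of stage 15 bear the name trns1MO. The labels do not explain this name or tie it to a kind of morpholino named in the design. The other MO-injected embryos of stage 15 are called MO-injected in their descriptions. None of the 13 embryos is labelled as a mismatch control. By title and stage field 1 uninjected embryo is of stage 15, by its description of stage 10; it was counted as stage 15. The stage 15 embryos bear titles of 2 styles, and a batch behind these could not be modelled. The target gene taf15 appears in no deposited list, so the RNA gives no check of its depletion. The count columns of the bin tables are numbered, and no label ties a number to an embryo, so embryos are called here by group and column number, which have no order.

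Taf15 is an RNA-binding protein that binds nascent RNA and takes part in transcription and splicing. When an intron is kept in the mature transcript, or an exon edge shifts, the extra stretch appears as reads in bins that are nearly empty in other transcripts. Narrow bins arise where annotated edges lie close together, and a sequencing read is longer than the narrowest of them, so the reads counted there also cover the neighbouring bases. The header of the mean count in the deposited tables calls a bin an exon. The tables do not say whether a bin is intronic in other transcripts. Neither read length nor genome build is stated in the labels or headers. In whole embryos, fewer cells of a type and less RNA per cell cannot be told apart.

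The short bins held few reads. The median bin had 1.5 reads per embryo in uninjected neurulae and 11 in MO-injected ones. Set to a common length, the median was 2.48 reads per 100 bases in uninjected embryos, with quartiles of 0.965 and 6.10, and 20.6 in MO-injected embryos, with quartiles of 9.18 and 59.8. The full range ran from 0.169 to 1075 reads per 100 bases in uninjected embryos and from 1.56 to 4067 in MO-injected embryos. The uninjected maximum belongs to a bin of 1 base in the gene listed as mgc69493, which was singled out after its value was seen. Its uninjected reads were 7, 15, 3 and 18, so a mean of 10.75 reads on 1 base gives that maximum. The medians per 100 bases in the single uninjected columns were 1.42, 1.01, 2.34 and 2.29, and in the MO-injected columns 15.9, 19.2 and 23.6. All 3 MO-injected columns thus lay above all 4 uninjected ones, in a set chosen for that direction.

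Reads per 100 bases were lower in wider bins, and reads per bin were higher. Listed bins of 150 to 599 bases, of which 379 had an uninjected read, had a median of 0.788 reads per 100 bases in uninjected embryos and 6.10 in MO-injected embryos. For the 327 bins of 600 bases or more the medians were 0.302 and 2.52. In reads per embryo the order was the opposite, with medians of 2.25 and 16.7 in the middle class and 3.75 and 37 in the longest. The median log2 ratio of mean raw counts, MO-injected over uninjected, was 2.58 in short bins, 2.60 in the middle class, 2.77 in long bins and 2.72 over all 1429 listed bins. The median log2 ratio of usage in the authors' deposited table was 1.60, 1.56 and 1.55 in the same 3 classes and 1.75 over all listed bins. All listed bins include those with no uninjected read, which the 3 classes leave out. In the bins left out, the median raw and usage log2 ratios were 3.06 and 5.73 under 150 bases. In wider ones they were 3.70 and 6.39. The classes therefore differed in density by a wide margin, while their medians of relative change lay close together. Width is the divisor of the density, so a narrower bin has a higher density for the same reads. The listing itself needs enough reads to pass, and the bins that did not pass are not in the table, so how density depends on width over all bins was not tested.

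**Figure D1:**
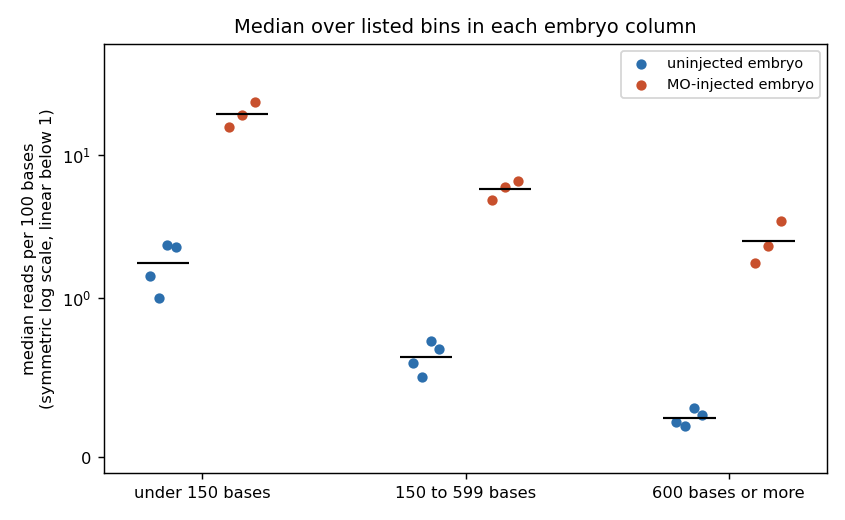
Median reads per 100 bases over the listed bins of 3 width classes in each stage 15 column (points; symmetric log axis, linear below 1), with the mean of each group's columns as a black line. In short bins the uninjected columns lie between 1.01 and 2.34 and the MO-injected columns between 15.9 and 23.6, and both groups are lower in each wider class.

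Within the short bins the density was again lower in each wider band, whereas the reads per bin had no steady order. The 40 bins of 10 bases or fewer had a median of 1 read per embryo in uninjected embryos and 9 in MO-injected embryos, which is 38.5 and 394 reads per 100 bases. The 44 bins of 11 to 25 bases had medians of 0.75 and 8 reads, or 4.55 and 42.5 per 100 bases. From there the uninjected density went through 2.98 (77 bins of 26 to 50 bases), 2.41 (82 bins of 51 to 75), 2.38 (97 bins of 76 to 100) and 1.68 (93 bins of 101 to 125) to 0.856 (61 bins of 126 to 149). In the same 5 bands the median uninjected reads per embryo were 1.25, 1.5, 2, 2 and 1.25, and the MO-injected ones 9.33, 11.3, 15, 13.3 and 11.7, so the widest band held fewer than the 2 before it. Over the 494 bins, width correlated weakly with uninjected reads (Spearman's rho 0.148), negatively with uninjected reads per 100 bases (-0.468) and hardly with the log2 ratio (0.02). These correlations are across bins that share libraries and, in part, genes, and width enters the density itself. Without the bins of 10 bases or fewer the medians were 2.27 and 18.7 reads per 100 bases.

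**Figure D2:**
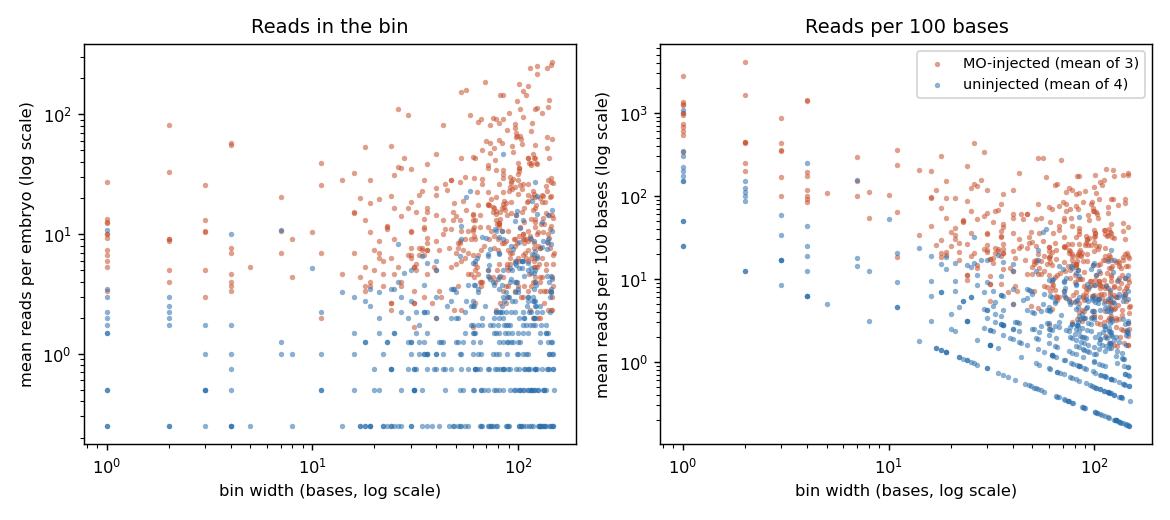
Mean reads per embryo (left) and mean reads per 100 bases (right) of each of the 494 short bins against its width, all on log axes, in uninjected (blue, mean of 4 columns) and MO-injected (orange, mean of 3 columns) neurulae. Reads show little trend with width, and the density falls from a median of 38.5 in uninjected embryos at 10 bases or fewer to 0.856 at 126 to 149 bases.

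The table held 12 bins of 1 base, in 11 genes. Their mean was 0.25 to 10.75 reads in uninjected embryos and 3.33 to 27.3 in MO-injected embryos. In 7 of the 12 the groups did not overlap, beside 74.3% of all short bins and 75.5% of all listed bins. In neo1, which encodes the receptor neogenin, bin E026 is the single base at position 50089842 of scaffold_7, minus strand, and had 2, 3, 5 and 4 reads in uninjected columns and 18, 34 and 30 in MO-injected columns. The lowest MO-injected value was above the highest uninjected one, and the log2 ratio was 2.80. In srsf4, an SR-family splicing factor, the 1-base bin E008 had 4, 0, 4 and 4 uninjected reads and 10, 8 and 12 MO-injected reads. Again the groups did not overlap, although 1 uninjected column was empty. The neighbouring bins E038 and E039 of iqgap2, a scaffold protein of the IQGAP family, are 1 base each, at 17145734 and 17145735 of scaffold_1. Both had 2, 1, 2 and 1 uninjected reads, with 6, 14 and 18 MO-injected reads in the first and 6, 13 and 18 in the second. They count nearly the same reads, so they are not separate observations.

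Such near copies were not confined to iqgap2. Of the 494 bins, 79 (16.0%) abut another listed bin of their gene, and 23 pairs of short bins abut each other. In 4 of the pairs the uninjected counts were identical in every column, and in 5 no column, uninjected or MO-injected, differed by more than 2 reads. These 5 lie in iqgap2, arnt2, kif24, lemd3 and rnf112.1, which were named after their counts were seen. At counts this low, near-equal values need not be the same reads. In kif24 the uninjected counts were 0, 1, 0 and 0 in E007 and 0, 0, 0 and 1 in E008, so the uninjected reads were not shared. In rnf112.1, related to RING-finger ubiquitin ligases, the 1-base bin E017 had 0, 0, 0 and 1 uninjected reads and 6, 3 and 11 MO-injected reads. Its neighbour E018, of 4 bases, had the same uninjected counts and 7, 3 and 11 MO-injected reads.

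Other bins at the top of the uninjected density were also of a few bases. In gfpt1, an enzyme that feeds the hexosamine pathway, the 4-base bin E006 had 11, 8, 4 and 17 uninjected reads against 64, 77 and 30, with no overlap. In naa50, an N-terminal acetyltransferase, the 1-base bin E003 had 1, 4, 4 and 0 against 4, 15 and 11. In wdr1, an actin-disassembly factor, the 1-base bin E011 had 1, 1, 1 and 5 against 5, 19 and 4. The groups of naa50 met at 4 reads and those of wdr1 crossed. The 1-base bin E015 of fcho2, an endocytic adaptor, had 1, 2, 2 and 2 against 6, 7 and 5, without overlap. In aldoa, the glycolytic enzyme aldolase A, the 7-base bin E006 had 6, 7, 18 and 12 against 17, 10 and 34, which overlap widely.

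The highest MO-injected density was that of puf60, a splicing factor that binds poly-U tracts. Its bin E003 covers 2 bases, 10197 to 10198 of scaffold_637 on the minus strand, and had 4, 1, 3 and 1 reads in uninjected columns and 85, 63 and 96 in MO-injected columns. All MO-injected columns were far above the uninjected ones, with means of 2.25 ± 1.5 (SD, n = 4) and 81.3 ± 16.8 (SD, n = 3) and a log2 ratio of 4.90. A second bin of puf60, E011 of 111 bases, had 4, 17, 2 and 0 against 34, 47 and 48. There the uninjected embryos were the most uneven of the named bins with a mean of at least 5 reads, while the MO-injected embryos were alike.

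At the upper edge of the width limit, cops5, a subunit of the COP9 signalosome, had 1, 0, 0 and 1 uninjected reads and 2, 10 and 9 MO-injected reads in a bin of 149 bases. The 148-base bins of cnst (0, 0, 1 and 0 against 11, 39 and 30), ap3s1 (1, 0, 0 and 2 against 10, 9 and 22) and ric8a (0, 2, 1 and 0 against 3, 6 and 8) also lie just inside. Just outside it, kat2a, a histone acetyltransferase, had 1, 2, 4 and 2 against 12, 9 and 13 in 150 bases. Next came rab27b with 3, 3, 5 and 9 against 19, 48 and 37 in 151 bases, cep152 with 2, 2, 4 and 3 against 15, 12 and 11 in 152 bases, and rpl23 with 0, 2, 0 and 0 against 9, 51 and 53 in 152 bases. The ranges of reads on the 2 sides of the limit overlapped. The other edge of the rule is 1 uninjected read: the 79 bins with exactly 1 had a median of 5 reads per MO-injected embryo, and the 132 short bins with none had a median of 3.67 and a maximum of 172.7.

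The direction of the listing was near uniform in raw reads. In 493 of the 494 bins the MO-injected mean was above the uninjected mean, and in 367 (74.3%) the lowest MO-injected column was above the highest uninjected column. Over all listed bins this holds for 75.5%, and for 71.2% of the middle and 80.7% of the long class, so the short bins stand near the rest. At least about 192074 bins were tested, judged from the relation of p to adjusted p in the authors' deposited table, so the listed bins are at most about 0.744% of those tested. The exception was a 97-base bin of plcb2, a phospholipase C, with 4, 0, 6 and 6 uninjected reads and 8, 1 and 1 MO-injected reads. Its usage is nevertheless listed as higher, and plcb2 itself is listed as lower, with a log2 fold change of -2.16 (SE 0.470) in the authors' deposited table.

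By coefficient of variation, reads were spread more evenly over the MO-injected embryos than over the uninjected ones, where most bins were close to empty. The ratio of variance to mean was higher over the MO-injected embryos. It can rise with the mean, which was also higher there, so it does not rank the groups by evenness. Every MO-injected column had a read in 481 bins, and of the other 13 bins 1 was empty in column 1 and 12 in column 2. Of the uninjected columns, all 4 had a read in 156 bins, 3 in 119, 2 in 121 and 1 in 98. The mean was under 1 read per uninjected embryo in 181 bins. The uninjected column with most reads held a median of 50% of a bin's uninjected reads, and the median coefficient of variation was 1.08 in uninjected and 0.452 in MO-injected embryos. The uninjected means were also lower, and the variance was a median of 1.2 times the mean in uninjected and 2.34 times in MO-injected embryos, where pure counting error gives 1. Among bins with a mean of 5 or more the median coefficient of variation was 0.508 (76 bins, uninjected) and 0.426 (406 bins, MO-injected). In these bins the variance was a median of 2.03 times the mean in uninjected and 2.86 times in MO-injected embryos. With columns scaled to equal totals over the listed bins within their group, the 2 medians were 2.10 and 2.54.

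The columns differed in the total they held over the short bins. Uninjected columns 1 to 4 held 1255, 1065, 1576 and 1403 reads, and MO-injected columns 1 to 3 held 9977, 12481 and 14619. Column 3 alone was the highest MO-injected column in 223 bins, and column 1 alone the lowest in 222. The libraries' depths are unknown, so these totals cannot be set against them. With columns scaled to equal totals over the listed bins within their group, column 1 was the lowest in 144 bins, column 2 in 198 and column 3 in 152, and the median log2 ratio was 2.60.

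Among bins with a mean of at least 5 uninjected reads, the steadiest uninjected values were those of caprin1, an RNA-binding protein of stress granules. Its 34-base bin E024 had 7, 6, 7 and 6 uninjected reads and 12, 31 and 26 MO-injected reads. In gtf2h4, a subunit of the transcription factor TFIIH, the 104-base bin E006 had 6, 6, 5 and 7 against 31, 17 and 23. In gnas, the stimulatory G-protein alpha subunit, the 124-base bin E009 had 22, 24, 16 and 21 against 135, 211 and 299. None of the 3 overlapped, and in gnas the MO-injected mean was 215 ± 82.1 (SD, n = 3) against 20.75 ± 3.40 (SD, n = 4). At the uneven end, besides puf60, stood the actin-bundling gene pls3 (0, 7, 20 and 3 against 75, 60 and 110), nosip (4, 2, 1 and 15 against 10, 8 and 25) and the actin-binding gene ablim1 (0, 5, 3 and 16 against 18, 15 and 45). Different columns were high in each: column 2 in puf60, column 3 in pls3 and column 4 in nosip and ablim1. The groups overlapped in nosip and ablim1. A further 3 bins with many uninjected reads were chosen after their values were seen. They were capn8 E014, in a calpain protease gene (57, 51, 45 and 34 against 138, 80 and 215), rpf2 E002, in a gene of ribosome assembly (15, 27, 24 and 15 against 85, 239 and 157), and pip5k1a E013, in a lipid kinase gene (18, 24, 22 and 12 against 63, 83 and 109). All 3 had reads in every embryo and did not overlap.

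The short bins were gathered in few genes only in part. Of the 384 host genes, 328 had 1 short bin, 40 had 2 and 16 had 3 or more, and 294 had no other listed bin. The largest host was ctdsp2, a small phosphatase that acts on the C-terminal domain of RNA polymerase II, with 14 short bins among its 22 listed ones. They held 19.2% of all MO-injected reads of the short bins and 5.08% of the uninjected reads. Summed over these 14 bins, uninjected columns held 69, 50, 79 and 71 reads and MO-injected columns 2092, 2192 and 2830. Each of the 14 separated the groups. In bin E003 (scaffold_2, 85475861 to 85475983, minus strand, 123 bases), which has the smallest adjusted p of the short bins in the authors' deposited table, uninjected columns had 8, 5, 5 and 8 reads and MO-injected columns 244, 233 and 281. The means were 6.5 ± 1.73 (SD, n = 4) and 252.7 ± 25.1 (SD, n = 3), a log2 ratio of 5.18, while the log2 ratio of usage was 2.26 in the authors' deposited table. Bin E004 (69 bases), which does not abut E003, had 5, 0, 2 and 3 against 166, 188 and 198, and E017 (109 bases) had 2, 1, 1 and 3 against 126, 119 and 191. These bins share a gene and its libraries and are not replicates of each other. Leaving ctdsp2 out, 480 bins remained and the medians were 2.45 and 20.2 reads per 100 bases.

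Other hosts with many short bins differed in how their MO-injected reads were spread. In tars2, a mitochondrial threonyl-tRNA synthetase, 9 short bins held 22, 18, 32 and 14 uninjected reads and 321, 593 and 132 MO-injected reads, and column 2 held 56.7% of the latter. In ap3s1, a subunit of the AP-3 vesicle adaptor, 12 short bins held 12, 2, 10 and 6 against 102, 72 and 169. For myo5c, an unconventional myosin, the 6 bins held 24, 16, 21 and 19 against 101, 164 and 193. The column with most MO-injected reads was thus a different one in tars2 than in ap3s1 and myo5c. A gene known by the identifier Xetro.K00724, which no symbol rule names, had 7 short bins with 2, 3, 1 and 5 against 163, 770 and 1069, and its shares of 8.14, 38.5 and 53.4% were among the least even. In ctdsp2 the 3 shares were 29.4, 30.8 and 39.8%. The 6 short bins of pnliprp2, a lipase-related gene, held 9, 22, 3 and 4 against 36, 8 and 38, and none of the 6 separated the groups. Over the 16 hosts with 3 or more short bins, the column that was most often highest among a gene's bins was column 3 in 10 genes, column 2 in 5 and column 1 in 1. In 3 genes every bin peaked in the same column. Over all short bins, columns 1 to 3 held 26.9, 33.7 and 39.4% of the MO-injected reads. Column 3 was thus the highest in total too, and the shares of ctdsp2 lay near these.

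**Figure D3:**
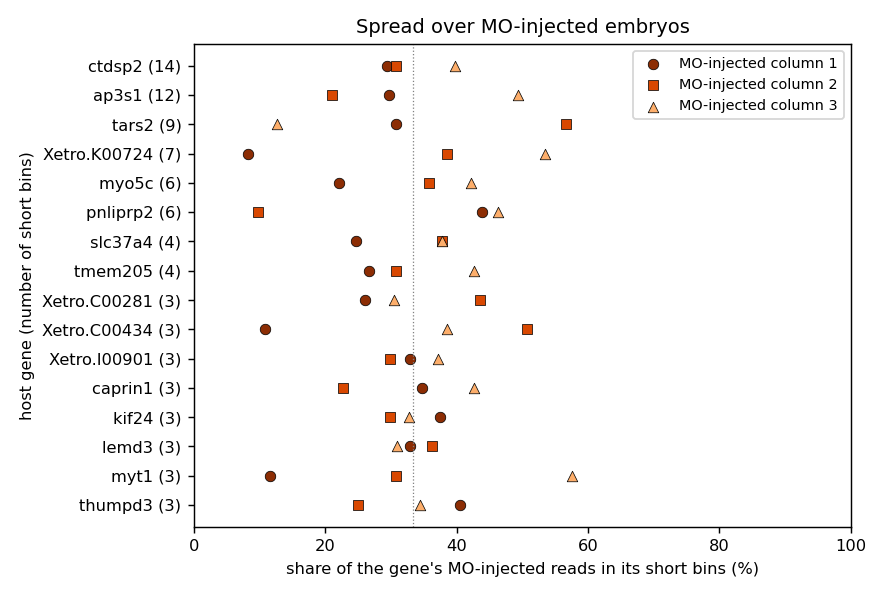
Share of a gene's MO-injected reads over its short bins that falls in each of the 3 MO-injected columns, for the 16 genes with 3 or more short bins (number in brackets); the dotted line marks equal shares. The shares of ctdsp2 lie between 29.4 and 39.8%, those of tars2 between 12.6 and 56.7%, and column 3 is the highest in most genes. Over all short bins columns 1 to 3 hold 26.9, 33.7 and 39.4%, so equal shares are not the share expected from the totals.

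Of the bins with a symbol and the 8 smallest adjusted p-values in the authors' deposited table, 7 lie in ctdsp2 and 1 in hspg2, which encodes perlecan, a proteoglycan of basement membranes. Its bin E054 (scaffold_259, 155512 to 155593, plus strand, 82 bases) had 0, 1, 2 and 0 uninjected reads and 131, 72 and 228 MO-injected reads. The groups were far apart, with means of 0.75 ± 0.957 (SD, n = 4) and 143.7 ± 78.8 (SD, n = 3), a log2 ratio of 6.85 and a log2 ratio of usage of 3.56 in the authors' deposited table. In polr2c, a core subunit of RNA polymerase II, bin E010 (scaffold_4, 111386599 to 111386627, plus strand, 29 bases) had 0, 0, 2 and 3 against 138, 75 and 80. In irx2, a homeobox transcription factor of the Iroquois family that patterns the neural plate, the 4-base bin E008 (scaffold_6, 76423029 to 76423032, minus strand) had 0, 0, 2 and 2 against 52, 48 and 67. Neither overlapped, and both had at most 3 reads in any uninjected embryo, so their ratios rest on very low uninjected counts.

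Of the 494 short bins, 32 bins in 26 genes were also in the authors' deposited table for stage 10. That is 6.48% of the short bins and 14.0% of the 228 bins of the stage 10 table, beside 10.3% of the middle and 9.48% of the long class. The stage 10 list makes up at most about 0.14% of the bins tested there. The groups did not overlap at stage 10 in any of the 32, where 97.4% of all listed stage 10 bins do not, and they did not overlap at stage 15 either. The median log2 ratio of the 32 was 2.99 at both stages, beside 3.04 over all stage 10 bins. The bins of both lists were selected for higher usage, so the shared direction is fixed by the choice.

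The raw reads of single bins differed between the 2 stages in some bins and were alike in others. In pygm, muscle glycogen phosphorylase, bin E025 had 33, 25 and 24 uninjected reads at stage 10 against 221, 213 and 153, and 27, 17, 37 and 28 at stage 15 against 100, 100 and 134. Its uninjected reads were alike at both stages and its MO-injected reads higher at stage 10. In polr2c, bin E010 had 2, 0 and 0 against 37, 7 and 23 at stage 10, below its stage 15 values. The 24-base bin E013 of phf8, a histone demethylase, had no uninjected read at stage 10, with 17, 30 and 6 in MO-injected embryos, and 1, 5, 7 and 1 against 54, 52 and 58 at stage 15. In contrast, irx2 had 1, 8 and 2 against 65, 77 and 51 at stage 10, and the 27-base bin E006 of myd88, an adaptor of Toll-like receptors, had 2, 0 and 2 against 36, 43 and 39 and then 0, 5, 1 and 3 against 37, 18 and 51. These 2 held similar reads at both stages. Over the 32, the MO-injected mean was higher at stage 10 in 13 and at stage 15 in 19. Depths are unknown, so these raw reads do not show whether the level of a bin differed between stages.

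**Figure D4:**
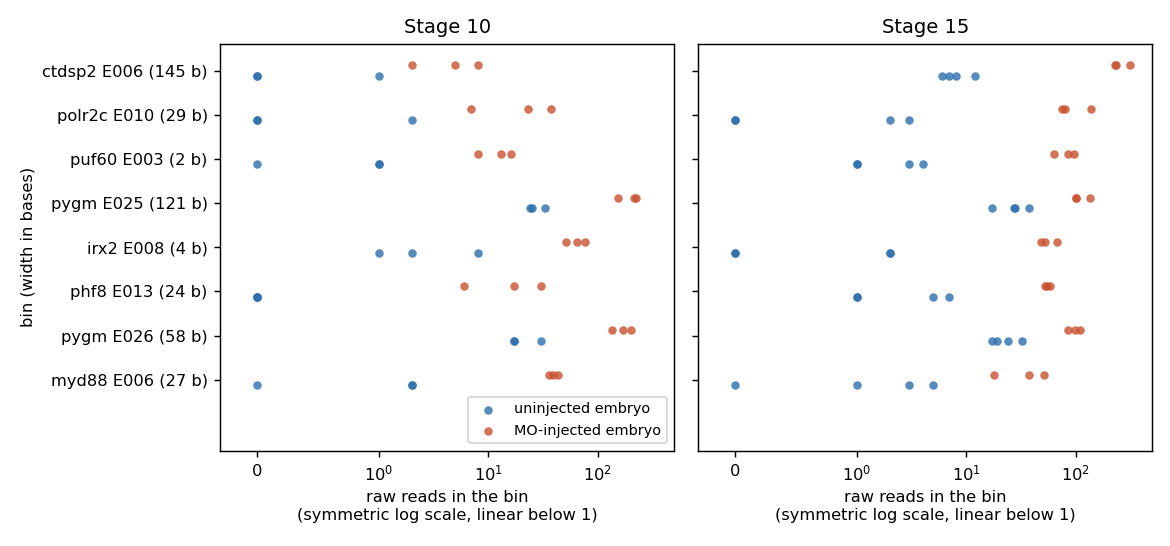
Raw reads of 8 short bins listed at both stages, in each embryo column at stage 10 (left) and stage 15 (right), on a symmetric log axis that is linear below 1. MO-injected embryos (orange) lie to the right of uninjected ones (blue) in every bin and stage shown, and the distance is shortest for ctdsp2 E006 at stage 10, where no embryo has more than 8 reads.

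Host genes were then set against the authors' deposited expression lists, which the rule did not use directly. The lists come from the same embryos and may count the same reads. Usage is taken relative to the gene's signal, so the level of the gene enters the measure by which bins were listed. The shares of lower and higher hosts are therefore not independent of the choice of bins and are given as a description. Of the 384 hosts, the authors' deposited table for stage 15 lists 58, of which 15 (3.91%) were higher and 43 (11.2%) lower in MO-injected embryos. The same table lists at most about 5.93% of all tested genes as higher and 7.22% as lower. The authors' deposited table for stage 10 also holds changes under 2-fold. It lists 12 of the hosts, 4 higher and 8 lower, where at most about 2.18% of tested genes are listed. These background figures are upper bounds. The share of lower hosts lay above its bound. That of higher hosts lay under its bound, so whether it is below the true background is unknown. The same holds over all 1046 genes with a listed bin, of which 11.3% were lower and 4.88% higher. The hosts of the middle (13.7% and 4.46%) and long class (11.6% and 5.10%) stand to the 2 bounds in the same way. Hosts of listed bins with no uninjected read do not, as their share of higher hosts lay above its bound. It was 10.1%, with 7.34% lower, under 150 bases, and 8.05%, with 8.05% lower, in wider bins. Whether the demand for an uninjected read shapes these shares was not tested.

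The raw reads of short bins are given by the listing of their host at stage 15, as a description only. The listed hosts with the smallest changes are at log2 fold changes of -1.02 and 1.02. Hosts not listed may thus have changed by less. The direction of the stage 15 expression table was read from the raw ratios of listed bins, these among them. The bins were also chosen for usage of 2-fold or more, so the order below is not independent of either choice. In hosts listed as lower, 54 short bins had a median log2 ratio of raw counts of 1.19, and in 9 (16.7%) the groups did not overlap. In hosts listed as higher, 22 bins had a median of 3.71 and 20 (90.9%) did not overlap. Of these, 7 lie in Xetro.K00724, with log2 ratios of 6.18 to 7.28 and groups that do not overlap, and the other 15 had a median of 3.34, with 13 (86.7%) not overlapping. The 418 bins in hosts that are not listed lay between, with a median of 2.61 and 338 (80.9%) not overlapping. The medians of the log2 ratio of usage in the authors' deposited table were in the other order, at 1.81, 1.35 and 1.60. All 18 short bins whose raw ratio was under 2-fold, in 16 genes, lie in hosts listed as lower, which the choice of bins by usage of 2-fold or more largely fixes.

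The hosts with the largest decreases show this in single bins. In spag17, a protein of the ciliary central apparatus with a log2 fold change of -6.17 (SE 0.648) in the authors' deposited table, the 11-base bin E018 had 1, 0, 0 and 1 uninjected reads and 1, 1 and 4 MO-injected reads. Its log2 ratio of usage, 4.10 in the authors' deposited table, thus belongs to a bin with at most 4 reads in any embryo. In large, a glycosyltransferase of dystroglycan listed at -2.53 (SE 0.563) in the authors' deposited table, bin E010 had 0, 6, 5 and 4 against 2, 3 and 10. In rab30, a Golgi GTPase listed at -2.33 (SE 0.278) in the authors' deposited table, bin E006 had 0, 0, 0 and 3 against 7, 1 and 5. These groups overlapped in all 3 genes. The bin of inpp5a.2, an inositol phosphatase gene listed at -2.26 (SE 0.444) in the authors' deposited table, had 0, 1, 0 and 1 against 3, 1 and 1, and bin E023 of pnliprp2, listed there at -2.20 (SE 0.414), had 1, 2, 0 and 1 against 6, 2 and 10.

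In the hosts with the largest increases the raw counts moved further than the usage. This is not particular to them, as bins in hosts not listed had median log2 ratios of 2.61 (raw) and 1.60 (usage). In reep6, a shaper of endoplasmic reticulum membranes listed at 3.11 (SE 0.289) in the authors' deposited table, bin E004 had 0, 0, 0 and 1 uninjected reads and 29, 12 and 18 MO-injected reads. In ano10, of the anoctamin family and listed at 2.51 (SE 0.247) in the authors' deposited table, bin E002 had 2, 7, 7 and 4 against 33, 44 and 89. Neither bin overlapped, yet their log2 ratios of usage were 1.56 and 1.02 in the authors' deposited table, against raw log2 ratios of 4.75 and 3.34. The bin of pgp, a phosphoglycolate phosphatase listed at 1.71 (SE 0.386) in the authors' deposited table, had 0, 0, 1 and 0 against 1, 24 and 21, so that 1 MO-injected embryo was at the uninjected level. In rfxank, a regulator of MHC class II genes listed at 1.58 (SE 0.260) in the authors' deposited table, bin E001 had 1, 0, 0 and 2 against 11, 10 and 13. In rbl2, the pocket protein p130 listed at 1.17 (SE 0.382) in the authors' deposited table, bin E008 had 3, 0, 0 and 0 against 4, 18 and 11, so that the lowest MO-injected and highest uninjected embryo differed by 1 read.

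**Figure D5:**
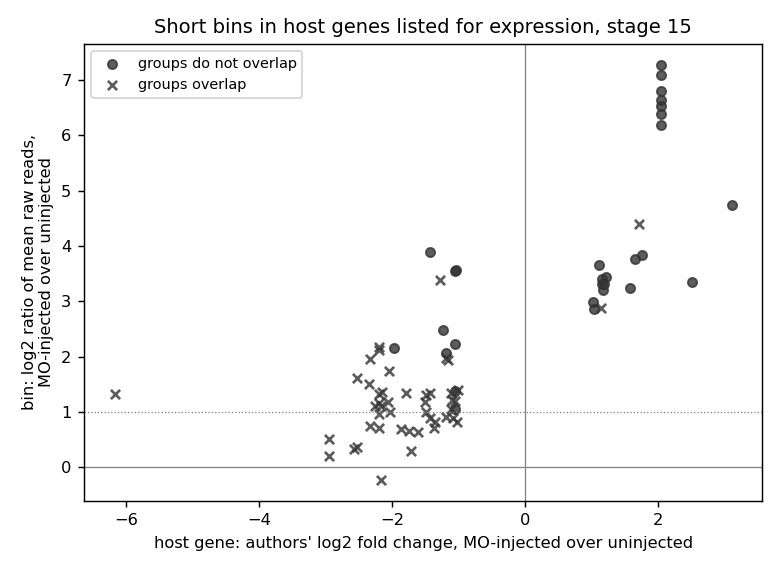
Log2 ratio of mean raw reads of each short bin (y) against the log2 fold change of its host gene in the authors' deposited table (x), for the 76 short bins in the 58 hosts listed at stage 15; circles are bins whose groups do not overlap and crosses bins whose groups do. Bins under the dotted line (2-fold) all belong to hosts listed as lower, a pattern that the choice of bins by usage brings with it, and in hosts listed as higher 20 of 22 bins do not overlap.

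By function, the hosts were of many kinds, and each list below was matched by the start of the gene symbol, so its counts are of symbols and miss other genes of the same function, puf60, caprin1, phf8 and myt1 for example. By the prefixes of splicing factors and RNA-binding proteins, 8 hosts had 8 short bins, 6 of them without overlap, out of 17 genes of the list with any listed bin. Over all 1046 genes with a listed bin, 36.7% were hosts of short bins. In prpf6, a protein of the tri-snRNP, bin E017 had 9, 18, 8 and 10 uninjected reads and 58, 77 and 62 MO-injected reads, a mean of 11.25 ± 4.57 (SD, n = 4) against 65.7 ± 10.0 (SD, n = 3). In the U1-associated prpf39.1 it was 8, 2, 7 and 7 against 22, 19 and 23, and in the helicase dhx30 5, 14, 11 and 4 against 27, 46 and 27. In these 3 splicing and RNA genes every MO-injected embryo was above every uninjected one. None of the 8 hosts is listed for expression at stage 15, beside 15.1% of all 384 hosts, and 8 genes are too few to compare. At stage 10, tia1 among them is listed as lower, at -0.554 (SE 0.120) in the authors' deposited table.

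By the prefixes of ribosome and translation genes, 8 hosts had 9 short bins, 7 without overlap, out of 12 genes with any listed bin. In eif2s2, the beta subunit of the initiation factor eIF2, bin E005 had 9, 16, 10 and 12 against 107, 200 and 151, or 11.75 ± 3.10 (SD, n = 4) against 152.7 ± 46.5 (SD, n = 3). In rpl23, of the large ribosomal subunit, bin E002 had 1, 2, 1 and 0 against 6, 48 and 63. The elongation factor genes eef1g (2, 1, 1 and 0 against 17, 5 and 6) and eef1a1 (0, 0, 1 and 0 against 2, 12 and 9) had few reads. All 4 separated the groups, and MO-injected column 1 was the lowest in eif2s2, rpl23 and eef1a1 but the highest in eef1g. The gene eef1a1 has near-identical copies, so its reads may be shared with them.

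The prefixes of chromatin regulators matched 4 hosts and 4 short bins, 2 without overlap, out of 7 genes with any listed bin. In brd8, a bromodomain protein, bin E008 had 27, 7, 14 and 14 against 75, 48 and 73, and in eed, a core subunit of Polycomb complex PRC2, bin E011 had 18, 14, 12 and 8 against 112, 118 and 55. These bins separated the groups. In the methyltransferase genes prmt5 (7, 1, 3 and 4 against 14, 3 and 15) and setd6 (3, 0, 1 and 1 against 4, 2 and 3) they overlapped, and both are listed as lower in the authors' deposited table, at -1.02 (SE 0.205) and -1.49 (SE 0.557).

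The signalling lists matched few hosts, but they also hold few genes with any listed bin. Hosts make up 36.7% of all genes with a listed bin, and a difference from that share was not tested in lists this small. The FGF, ERK and receptor tyrosine kinase list had 3 hosts, of 14 of its genes with any listed bin, and 1 of the 3 bins did not overlap. That bin was E015 of etv1, an ETS factor and target of FGF signalling, with 5, 2, 3 and 3 against 12, 21 and 26. The related etv4 had 0, 0, 1 and 0 against 1, 17 and 5, and the PDGF receptor gene pdgfra 4, 1, 1 and 3 against 4, 13 and 13. The Wnt list had 1 host, of 2 genes with any listed bin. It was dvl3, a transducer of the Frizzled signal (1, 3, 2 and 2 against 6, 5 and 15). The TGF-beta and BMP list had 1 host, of 4 such genes, the receptor gene bmpr1b (4, 0, 3 and 1 against 5, 8 and 10). Both separated the groups at low counts. The Notch and Hedgehog list had no short bin, although 3 of its genes have a listed bin of another kind. The prefixes of developmental transcription factors matched 3 hosts and 3 bins, out of 11 genes with any listed bin. They were irx2, sox7 and paxip1. The endothelial and endodermal factor gene sox7 had 4, 4, 2 and 7 against 26, 7 and 10. The bin of paxip1 had 1, 1, 4 and 3 against 7, 38 and 10. This DNA damage response protein matched by its prefix only. The bin of sox7 met the uninjected range at 7 reads and the other bins did not overlap.

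The longer lists were those of cell structure and transport. The cell division and replication list had 10 hosts, of 21 genes with a listed bin, and 13 bins, 11 without overlap. Some of the hosts, polr2c and poldip3 included, share only the prefix. In mcm3ap, a scaffold of mRNA export, bin E034 had 5, 1, 6 and 5 against 44, 45 and 53, in the kinesin gene kif24 the 11-base bin E003 had 2, 2, 5 and 0 against 32, 24 and 21, and in poldip3 bin E013 had 0, 0, 1 and 0 against 10, 29 and 14. The cytoskeleton and small GTPase list had 10 hosts, of 22 genes with a listed bin, and 18 bins, 14 without overlap. There the heavy chain gene of cytoplasmic dynein, dync1h1, had 6, 6, 16 and 10 against 30, 54 and 67 in bin E055, and myo5c had 2, 1, 6 and 4 against 20, 31 and 37 in bin E006. Membrane transporters and channels had 15 hosts and 20 bins, 13 without overlap, out of 35 genes with a listed bin. The mitochondrial carrier gene slc25a30 had 7, 7, 11 and 12 against 59, 60 and 60 in bin E003. The cation exchanger gene slc24a5, known for its part in pigmentation, had 0, 1, 2 and 0 against 22, 46 and 39 in bin E005, and slc37a4, the glucose-6-phosphate transporter gene, had 2, 1, 6 and 2 against 10, 22 and 16 in bin E006. Ubiquitin and proteasome genes had 8 hosts, of 25 genes with a listed bin, and 9 bins, 7 without overlap. Among these 7, the F-box gene fbxo3 had 1, 0, 1 and 1 against 11, 9 and 12. The RING-finger gene rnf114 had 0, 0, 0 and 1 against 5, 7 and 15. Read against the 75.5% of all listed bins that do not overlap, the counts without overlap single out no list. The host counts stand beside the 36.7% of all genes with a listed bin, and a difference from that share was not tested.

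By position, 403 of the 494 short bins lie on the scaffolds numbered 1 to 10. Of all 494, 277 (56.1%) lie in genes on the minus strand, against 52.8% of all listed bins, and 263 without ctdsp2. Only 20 are the first bin of their gene by coordinate. No short bin overlaps a listed bin of another gene. The library kit does not mark strand, so reads of an antisense transcript over a bin would be counted with it.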

How the data were processed

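Libraries were made with the TruSeq RNA v2 kit from single embryos, per the labels' protocols. TopHat, Bowtie, Cufflinks, Cuffdiff, DESeq and DESeq2 appear in the submitters' processing notes, without version or role. Aligner settings, genome build, annotation, read length and the counting rule are stated nowhere in these sources. The authors deposited raw counts of reads per bin and embryo column, a mean count (signal), a log2 ratio of usage (uninjected over MO-injected, sign turned here), and both raw and adjusted p-values. Columns of counts in the stage 15 table bear the name of stage 10; they were used as stage 15, because the fitted columns bear that stage and 4 of the count columns are uninjected. The expression tables deposited by the authors hold log2 fold changes with standard errors, p-values and a mean normalised count. Their headers name no direction, which was read as MO-injected over uninjected. At stage 15 the fold changes correlated with the raw bin ratios over 169 genes (Spearman's rho 0.699). The stage 10 table was read in the same direction, and no such correlation is given for it. Every listed item has an adjusted p under 0.1, and the number tested is the least that their p-values allow under Benjamini-Hochberg adjustment.

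The repeated header row was dropped, and 0 per-embryo columns were left unused. For log2 ratios, 0.5 was added to both mean raw counts; they are not corrected for depth, which is unknown, so no interval or floor is given. No model was refitted to the counts, because the tables hold selected bins only. Scripts ran in Python 3.11.15 with pandas 2.3.3, numpy 2.4.6 and scipy 1.17.1. The log2 ratio was checked on simulated counts with far more reads per bin and counting error only. That check does not cover counts as low as those of the short bins. Of the 384 hosts, 315 matched a symbol in RefSeq's table for UCB_Xtro_10.0, used for names only, and 51 carry an Xetro identifier.

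The members, the 12 gene lists and all rules were chosen with earlier results of these data known. Bins were named, where they carry a gene symbol, by extremes of uninjected density, adjusted p, log2 ratio (at a mean of 1 or more), width on both sides of the limit, and coefficient of variation (at a mean of 5 or more). Hosts were named by number of short bins and by expression change, and bins by listing at stage 10 and by up to 4 for each gene list. Alternatives were other width limits, read minima, pseudocounts, a scaling of columns, 1 bin per gene and each column left out.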

Additional observations from a re-analysis of the deposited data

Results flagged for a closer look

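In 16 of the 82 named bins the uninjected embryos of stage 15 held 1 value that stood apart from the other 3 by more of the whole range than Dixon's critical value for 4 samples allows. Chance sets apart about 1 in 20 groups of unrounded values, and most of these are ties of whole reads that differ by 1. Single reads of 1 against 0 in the other columns did so in cnst E007, reep6 E004, pgp E007, eef1a1 E014, etv4 E003, poldip3 E013, rnf114 E008, rnf112.1 E018 and rnf112.1 E017. A count of 1 beside 2 did so in fcho2 E015, and a count of 0 beside 1 in fbxo3 E002. Wider gaps were those of rab30 E006 and rbl2 E008, with 3 reads in 1 embryo and 0 in the others, and of wdr1 E011, with 5 against 1. In srsf4 E008 one embryo had 0 reads where the others had 4, and in prpf39.1 E019 one had 2 where the others had 7 or 8.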

How the results depend on the processing

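Of 139 values computed under the alternatives, 113 stayed within a set limit, 26 moved and 0 changed direction. The limit was 1 SD over the columns or, for counts, which have no such spread, 1.5 times. The 113 include values that a setting could not change. Only log2 ratios could change direction, in bins chosen for higher usage. A pseudocount of 1 gave a median log2 ratio of 2.26 in place of 2.58. The limit of 100 bases left 334 bins in 287 genes, 255 of the bins without overlap, with a median of 25.6 MO-injected reads per 100 bases. A minimum of 4 uninjected reads left 313 bins in 248 genes, with medians of 4.21 and 28.0 reads per 100 bases, 242 bins without overlap and 33 hosts listed for expression. A minimum of 10 left 159 bins in 128 genes, with medians of 6.12 and 42.5, a log2 ratio of 2.36, 125 without overlap, a highest column of 42.1% of the uninjected reads and 17 listed hosts. An adjusted p under 0.01 left 282 bins in 206 genes, with 31.9 MO-injected reads per 100 bases, a log2 ratio of 2.86 and 21 listed hosts. These limits lower the counts by construction. With 1 column left out, the share of the highest uninjected column lay between 50 and 66.7%. It was from 62.5% up where an uninjected column was dropped and 3 remained. In those runs 52 of 56 values kept within the same limits. The set of bins was held fixed there, so the numbers of bins, hosts and listed hosts could not change. Nor could the density of the group that lost no column, or the uninjected share where a MO-injected column was dropped. The 52 are thus no measure of stability. Alternatives chosen after seeing the data (without ctdsp2, without bins of 10 bases or fewer, without bins that abut another) moved no value. Another of them, the omission of Xetro.K00724, took the bins without overlap in hosts listed as higher from 20 of 22 to 13 of 15. No paired analysis was possible because no column is tied to an embryo. With a median of 1.5 uninjected reads per embryo, single bins are limited by depth.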
